A study of Homo sapiens with 9 samples.

Results

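The S100 genes encode small calcium-binding proteins, and 10 of them were described here across 9 human cell lines: S100A2, S100A4, S100A6, S100A8, S100A9, S100A10, S100A11, S100A14, S100A16 and S100P. They were taken by name from the raw count table, in which they are 10 of 52158 named genes. The rule itself used no measured value, but the genes were chosen with earlier results of these data known. S100 proteins carry a pair of EF-hand motifs, usually pair up as dimers, and change shape when calcium binds so that they can grip a target protein. Their targets include annexins, which link them to membranes, and cytoskeletal proteins such as non-muscle myosin, while some members are released and bind surface receptors such as AGER (RAGE) and TLR4. In epithelia several are used as markers of differentiation state or of tumour spread, and most of the family lies in 1 cluster on chromosome 1, among the genes of the epidermal differentiation complex.

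Total RNA was sequenced from the lines ESO-26, ESO-51, FLO-1, JH_EsoAd1, OACP4_C, OAC_5.1_C, OE19, OE33 and SK-GT-4, which the labels call oesophageal adenocarcinoma, with the gastric cardia as source. Every line was grown without treatment, and no other genotype, agent or time was compared. Each line gave 1 column of counts, so 1 library stands for a line and the spread between cultures of a line is unknown. Levels are count rates (CPM) after scaling of library sizes, and their 95% intervals are exact Poisson intervals that cover counting error only.

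The libraries held 16801179 (ESO-26) to 69881539 (FLO-1) counts in named genes, so that 3 counts, the floor given for a count of 0, stood for 0.0400 to 0.173 CPM. Mitochondrial genes took 1.48% to 24.7% of the counts, with the highest share in JH_EsoAd1. OE19 cells are known for amplified ERBB2, the receptor HER2. Yet the library labelled OE19 had 185 CPM of ERBB2, and the library labelled SK-GT-4 had 18325 CPM. The remaining libraries ran from 10.4 CPM (ESO-26) to 3515 CPM (ESO-51), and OE33, at 149 CPM, stood next above the lowest. Whether any library matches its name was not tested, so all names, ESO-26 and OE33 included, are used below only as labels. The epithelial identity of the lines was read from 8 markers (EPCAM, CDH1, KRT8, KRT18, KRT19, CLDN4, ELF3 and GRHL2), whose summed level in ESO-26 was 167 CPM and in OE33 1205 CPM, against 3965 to 14722 CPM in the other 7 lines. CDH1, which encodes E-cadherin, was at 0.173 CPM in ESO-26 and at 21.5 CPM in OE33, and EPCAM was at 5.13 CPM in ESO-26 and at 0.189 CPM in OE33, so that these libraries go against an epithelial label at these markers. The counts of calls, the S100A14 and S100P calls and the correlations that rest on these libraries are given with and without them.

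The 10 listed S100 genes varied more between the lines than most genes did, but they were chosen with earlier results of these data known. Only 3 of 11 other S100 genes reached 5 CPM in a library, so the ranges describe the list and not the whole family. On the log2(CPM + 1) scale, 9 of the 10 members had a highest level at least 4 units above their lowest, that is at least 16-fold on this scale, against 21.3% of the 14580 genes that reached 5 CPM in at least 1 library. The median range was 6.66 log2 units over the 10 members, S100A8 included, and 2.35 over the genes tested. S100P had the widest range, 9.20 log2 units, followed by S100A16 with 9.04, S100A4 with 8.69, S100A14 with 8.51 and S100A11 with 8.03. S100A9, S100A6, S100A2 and S100A10 lay between 4.98 and 5.29. S100A8 did not reach 5 CPM, since it was not detected outside 1 library, and so 9 of 10 members were among the genes tested. Without the library labelled ESO-26, 6 members had a range of at least 4 units, and without ESO-26 and OE33, 5.

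**Figure D1:**
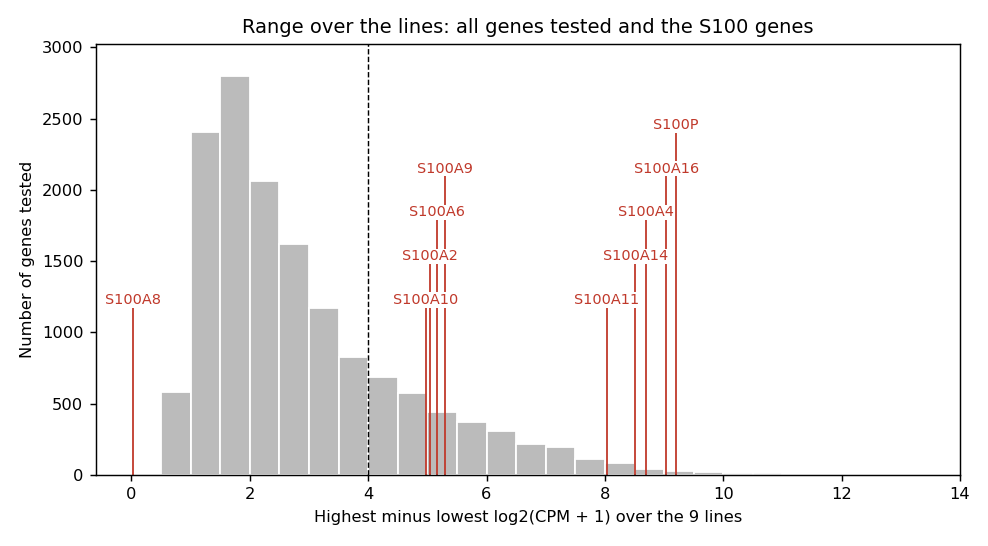
Histogram of the highest minus the lowest log2(CPM + 1) over the 9 lines for the 14580 genes tested, with red lines (of arbitrary height) at the values of the 10 S100 genes and a dashed line at 4 units. Of the S100 genes, 9 lie right of the dashed line, and S100A8 lies near 0.

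A member was called higher in a line where its log2(CPM + 1) lay at least 2 above the median of the other 8 lines with 5 CPM or more, and lower where it fell 2 or more below that median and the median was 5 CPM or more. Of the 90 pairs of member and line, 13 were called higher, against 5.11% of the pairs over all genes tested, and 14 were called lower, against 3.47%. ESO-26 had the most calls, with 2 members higher (background 4.81%) and 5 lower (background 7.98%). OE19 had 4 higher (background 4.6%) and 0 lower (4.47%), FLO-1 had 4 higher (6.19%) and 0 lower (1.21%), and SK-GT-4 had 2 higher (5.74%) and 0 lower (3.91%). ESO-51 had 0 higher (4.44%) and 4 lower (3.37%), and OE33 had 0 higher (5.54%) and 3 lower (5.24%). OACP4_C had 0 higher (4.0%) and 1 lower (1.92%), and JH_EsoAd1 had 1 higher (4.95%) and 1 lower (1.41%). OAC_5.1_C had 0 higher (5.73%) and 0 lower (1.75%). The median difference of the 10 members from the other lines was 1.63 log2 units in OE19 and -2.17 in ESO-26, while the median over all genes tested was -0.01 and -0.02 there. Without the library labelled OE19 there were 9 higher and 13 lower calls, and without SK-GT-4 there were 13 and 13. Without ESO-26 there were 11 higher and 9 lower calls, without OE33 14 and 12, without both of them 11 and 8, and without ESO-51 13 and 9. Each of these counts also lacks the calls of the left-out library itself.

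**Figure D2:**
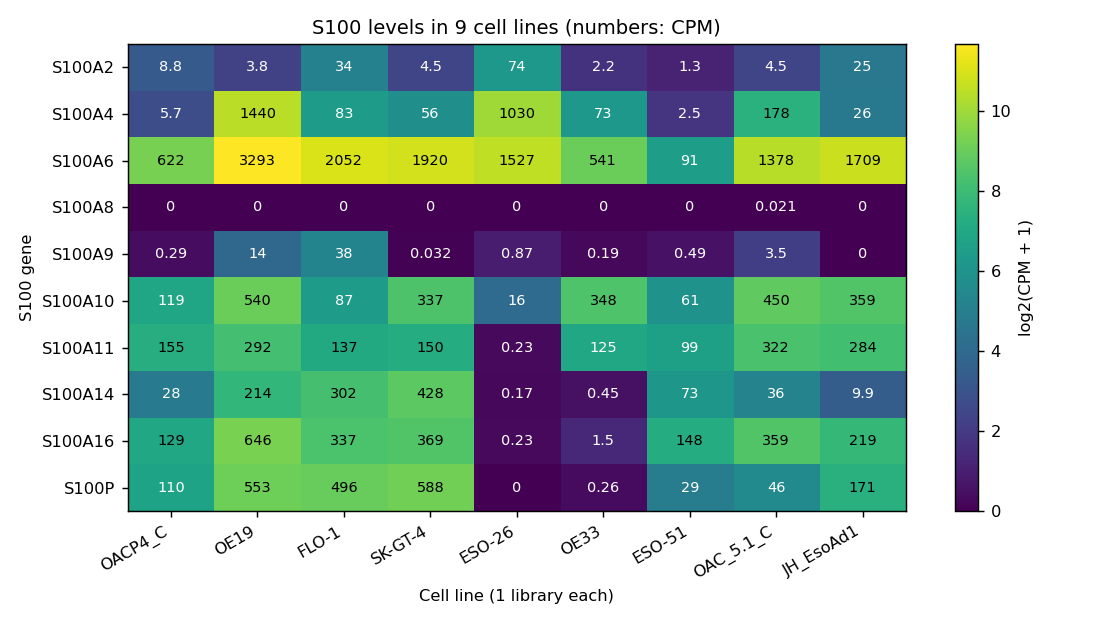
Level of the 10 S100 genes (rows) in the 9 lines (columns, 1 library each), with log2(CPM + 1) as colour and CPM as the printed number. S100A6 has 541 CPM or more in every column except ESO-51, S100A8 is dark throughout, and S100A14, S100A16 and S100P are dark in ESO-26 and OE33.

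S100A14, S100A16 and S100P formed the clearest pattern, present in 7 lines and close to absent in ESO-26 and OE33. S100A14 and S100A16 are neighbours on chromosome 1, while S100P is the only member on chromosome 4. Their start-site windows are shown because these 3 genes were low in the same lines, together with that of S100A11, which was low in ESO-26 and not in OE33. Each window runs from 250 bases before to 50 bases after an annotated start, 5′ to 3′ on the gene's own strand, from RefSeq on GRCh38.p14. S100A14 has 1 window at chr1:153616276-153616575 (minus strand), S100A16 has 2 at chr1:153609306-153609605 and chr1:153613088-153613387 (minus strand), S100P has 1 at chr4:6693628-6693927 (plus strand) and S100A11 has 1 at chr1:152036955-152037254 (minus strand). Capitals mark the E2 box CAGGTG, the letters that SNAI and ZEB repressors and other E-box proteins are known to bind, and the GC box GGGCGG, searched on both strands; no match of one overlapped a match of the other in these windows.
S100A14: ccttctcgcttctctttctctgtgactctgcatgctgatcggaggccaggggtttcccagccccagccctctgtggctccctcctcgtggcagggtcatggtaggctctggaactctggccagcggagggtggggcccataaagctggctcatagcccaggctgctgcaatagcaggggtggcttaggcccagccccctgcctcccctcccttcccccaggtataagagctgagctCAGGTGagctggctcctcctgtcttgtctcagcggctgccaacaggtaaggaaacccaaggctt
S100A16 start 1: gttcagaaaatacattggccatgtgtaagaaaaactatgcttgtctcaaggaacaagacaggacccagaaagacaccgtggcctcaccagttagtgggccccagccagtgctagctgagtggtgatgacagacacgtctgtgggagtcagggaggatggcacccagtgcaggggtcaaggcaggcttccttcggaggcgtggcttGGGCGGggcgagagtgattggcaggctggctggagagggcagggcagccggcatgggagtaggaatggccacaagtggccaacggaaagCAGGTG
S100A16 start 2: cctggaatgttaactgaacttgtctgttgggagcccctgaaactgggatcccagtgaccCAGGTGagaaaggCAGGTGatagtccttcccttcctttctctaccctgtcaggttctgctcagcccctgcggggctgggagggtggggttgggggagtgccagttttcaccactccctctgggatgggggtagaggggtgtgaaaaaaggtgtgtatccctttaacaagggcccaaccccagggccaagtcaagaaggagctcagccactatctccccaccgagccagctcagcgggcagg
S100P: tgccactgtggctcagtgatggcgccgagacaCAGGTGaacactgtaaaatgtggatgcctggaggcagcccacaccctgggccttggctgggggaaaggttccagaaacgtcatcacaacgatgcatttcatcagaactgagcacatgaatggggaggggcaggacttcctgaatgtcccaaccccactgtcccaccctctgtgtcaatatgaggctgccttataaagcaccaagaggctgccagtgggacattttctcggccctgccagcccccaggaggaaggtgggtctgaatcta
S100A11: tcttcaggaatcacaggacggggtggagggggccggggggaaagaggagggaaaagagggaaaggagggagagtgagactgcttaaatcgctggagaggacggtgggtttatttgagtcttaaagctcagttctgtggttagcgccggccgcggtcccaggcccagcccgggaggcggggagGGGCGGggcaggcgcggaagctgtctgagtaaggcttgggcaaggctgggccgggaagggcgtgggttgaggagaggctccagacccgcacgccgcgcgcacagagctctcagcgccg
The E2 box was found 1 time in the S100A14 window, 1 and 2 times in the S100A16 windows, 1 time in the S100P window and not in the S100A11 window. It was present in 20.6% of the 35116 windows of all genes. Among the 14 windows of the 10 members it was in 71.4%, including windows of S100A2, S100A4, S100A8 and S100A9, and the 3 windows of S100A8 overlap. The windows of S100A6, S100A10 and S100A11, without an E2 box, held 31, 32 and 22 CG dinucleotides, against 2 to 8 in every window of the other 7 members and a median of 14 over all windows. The GC box was found in 15786 of the 35116 windows, the TATA box TATAAA in 11.5%, including those of S100P, S100A4, S100A9 and a pair of S100A8 windows, and the AP-1 letters TGANTCA in 7.71%, including 1 window of S100A2. In ESO-26, S100A2 and S100A4, which have an E2 box, were called higher (3.77 and 3.99 log2 units). S100A10 and S100A11, which have none, were called lower there (-4.32 and -6.96). S100A8 and S100A9, with an E2 box, and S100A6, without, were not called in ESO-26. A match gives the letters only, and neither binding nor a link of the letters with the levels was tested.

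S100P, a calcium sensor first found in placenta that binds ezrin and, outside cells, AGER, had 110.0 CPM in OACP4_C, 553 in OE19, 496 in FLO-1, 588 in SK-GT-4, 28.7 in ESO-51, 45.6 in OAC_5.1_C and 171 in JH_EsoAd1. It had 7 counts in OE33, or 0.264 CPM (95% interval 0.106 to 0.544), and 0 counts in ESO-26, where the floor was 0.173 CPM. The median of the other 8 lines, 140.3 CPM, was 811 times that floor. The 95% interval of the 0 counts in ESO-26 reached above the floor, to 0.213 CPM. OE19, FLO-1 and SK-GT-4 formed the upper end, with S100P 2.94, 2.79 and 3.03 log2 units above the median of the other lines, and all 3 were called higher. These differences were 2.32, 2.16 and 2.41 without any 1 of ESO-26, OE33, ESO-51 and OAC_5.1_C, and up to 3.57, 3.41 and 3.66 without another line. Without both ESO-26 and OE33 they were 2.005, 1.85 and 2.09, so that the call in FLO-1 was lost. Their intervals did not overlap each other, and ESO-26 and OE33 were the only neighbours in the order that did. ESO-51 was called lower (-2.21 log2 units), a call that was lost without OE19, FLO-1, SK-GT-4 or JH_EsoAd1, the difference then reaching -1.90, and likewise with library size alone (-1.94) and with FPKM (-1.34 as deposited, -1.54 rescaled), while it was -3.30 without both ESO-26 and OE33.

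S100A14, a member found mainly in epithelial cells, had 27.9 CPM in OACP4_C, 214 in OE19, 302 in FLO-1, 428 in SK-GT-4, 72.6 in ESO-51, 36.5 in OAC_5.1_C and 9.86 in JH_EsoAd1. ESO-26 had 3 counts, or 0.173 CPM (95% interval 0.0357 to 0.506), and OE33 had 12 counts, or 0.453 CPM (0.234 to 0.790), which overlapped. It was called higher in OE19, FLO-1 and SK-GT-4, by 2.71, 3.20 and 3.70 log2 units, and lower in ESO-26 (-5.48), OE33 (-5.18) and JH_EsoAd1 (-2.27). Without ESO-26 and OE33 the higher differences were 2.03, 2.53 and 3.03, and that in JH_EsoAd1 was -3.53. The call in JH_EsoAd1 was lost without OE19, FLO-1, SK-GT-4 or ESO-51, the difference then reaching -1.79, and with a pseudocount of 5 (-1.93). S100A14 was thus called higher in the same 3 lines as S100P, while ESO-51 and JH_EsoAd1 changed places between the orders of the 2 genes.

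S100A16, which lies beside S100A14 and binds calcium in 1 of its EF hands, was more even among the 7 lines that had it, with 129 CPM in OACP4_C, 646 in OE19, 337 in FLO-1, 369 in SK-GT-4, 148 in ESO-51, 359 in OAC_5.1_C and 219 in JH_EsoAd1. No line was called higher. ESO-26 had 4 counts, or 0.231 CPM (95% interval 0.0629 to 0.591), and OE33 had 39 counts, or 1.47 CPM (1.05 to 2.01). Their differences from the median of the other lines were -7.79 and -6.78 log2 units, and unlike S100A14 and S100P their intervals did not overlap. The lines with low S100A14, S100A16 and S100P were those with low epithelial markers, of which 8 of 8 were called lower in ESO-26 and 6 of 8 in OE33. KRT8 was not called lower in OE33, at 903 CPM, and no epithelial marker was at 0 counts in any line. Over the 9 lines this list had 7 pairs called higher (9.72% of its tested pairs) and 17 lower (23.6%), against 5.11% and 3.47% over all genes tested. GRHL2 was also close to absent in OE19 (0.0713 CPM) and JH_EsoAd1 (0.595 CPM). There S100P had 553 and 171 CPM, S100A16 646 and 219 CPM, and S100A14 214 and 9.86 CPM. In JH_EsoAd1 S100A14 and the marker CLDN4 were called lower. The part of the epithelial genes in the levels of the 3 S100 genes was not tested, and in bulk RNA fewer cells of a type and less RNA per cell cannot be told apart.

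S100A10 and S100A11 are known for binding annexins, as some other members also do, S100A10 as the partner of ANXA2 at the plasma membrane and S100A11 as a partner of ANXA1. S100A11 was present at 155 CPM in OACP4_C, 292 in OE19, 137 in FLO-1, 149.7 in SK-GT-4, 125 in OE33, 98.6 in ESO-51, 322 in OAC_5.1_C and 284 in JH_EsoAd1. ESO-26 stood alone, with 4 counts and a difference of -6.96 log2 units, while OE33 differed by -0.29. OE19 and JH_EsoAd1 overlapped in their intervals, as did OACP4_C and SK-GT-4. The pseudogene copies S100A11P1 and S100A11P2 had 0 and 4 counts in ESO-26, and S100A11P2 stayed at 0.267 to 1.15 CPM in the other lines, so neither copy was raised in ESO-26.

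S100A10, unusual in the family because it no longer binds calcium, was lowest in the same line, with 16.1 CPM in ESO-26 from 280 counts (95% interval 14.3 to 18.2). ESO-51 had 61.4 CPM, FLO-1 86.6, OACP4_C 119, SK-GT-4 337, OE33 348, JH_EsoAd1 359, OAC_5.1_C 450.4 and OE19 539.6. The lines thus fell into 5 at 337 CPM or more and 4 at 119 CPM or less. SK-GT-4, OE33 and JH_EsoAd1 followed each other with overlapping intervals. ESO-26 (-4.32 log2 units) and ESO-51 (-2.46) were called lower, the call in ESO-51 being lost with FPKM (-1.64 as deposited, -1.83 rescaled). The 2 genes kept a similar order over the lines, with Pearson r 0.84 and Spearman correlation 0.87 over 9 lines and r 0.88 without ESO-26 and OE33, while r was 0.62 without the 2 lines farthest from the median of S100A10.

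Of 13 annexins on the list 11 matched the table and all 11 were tested. ESO-26 had 6 called lower (ANXA1, ANXA2, ANXA3, ANXA4, ANXA9 and ANXA11, background 7.98%) and 0 higher (4.81%), with a median difference of -2.33 log2 units over the 11 genes, and OE33 had 3 called lower (ANXA1, ANXA3 and ANXA9, background 5.24%) and 1 higher (5.54%), with a median of -1.15. ANXA1, which carries anti-inflammatory signals and binds S100A11, had 0.981 CPM in OE33, against a median of 340.3 CPM in the other 8 lines (12.05 to 691). It had 35.1 CPM in ESO-26. OE33 therefore had little ANXA1 beside 125 CPM of S100A11. ANXA3 had 6 counts, 0.346 CPM, in ESO-26, where the other lines had a median of 216 CPM, and ANXA6 had 0 counts in OE19, against a median of 35.9 CPM. ANXA10, a stomach-type annexin, was called higher in SK-GT-4, OE19 and OACP4_C and reached 334 CPM in SK-GT-4, against a median of 0.388 CPM, and ANXA13, an intestinal annexin, had 12.99 CPM there, against a median of 0.0309 CPM. Over the 11 annexins and 9 lines 10 pairs were called higher and 15 lower, or 10.1% and 15.2% of their pairs, against 5.11% and 3.47% over all genes tested.

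**Figure D3:**
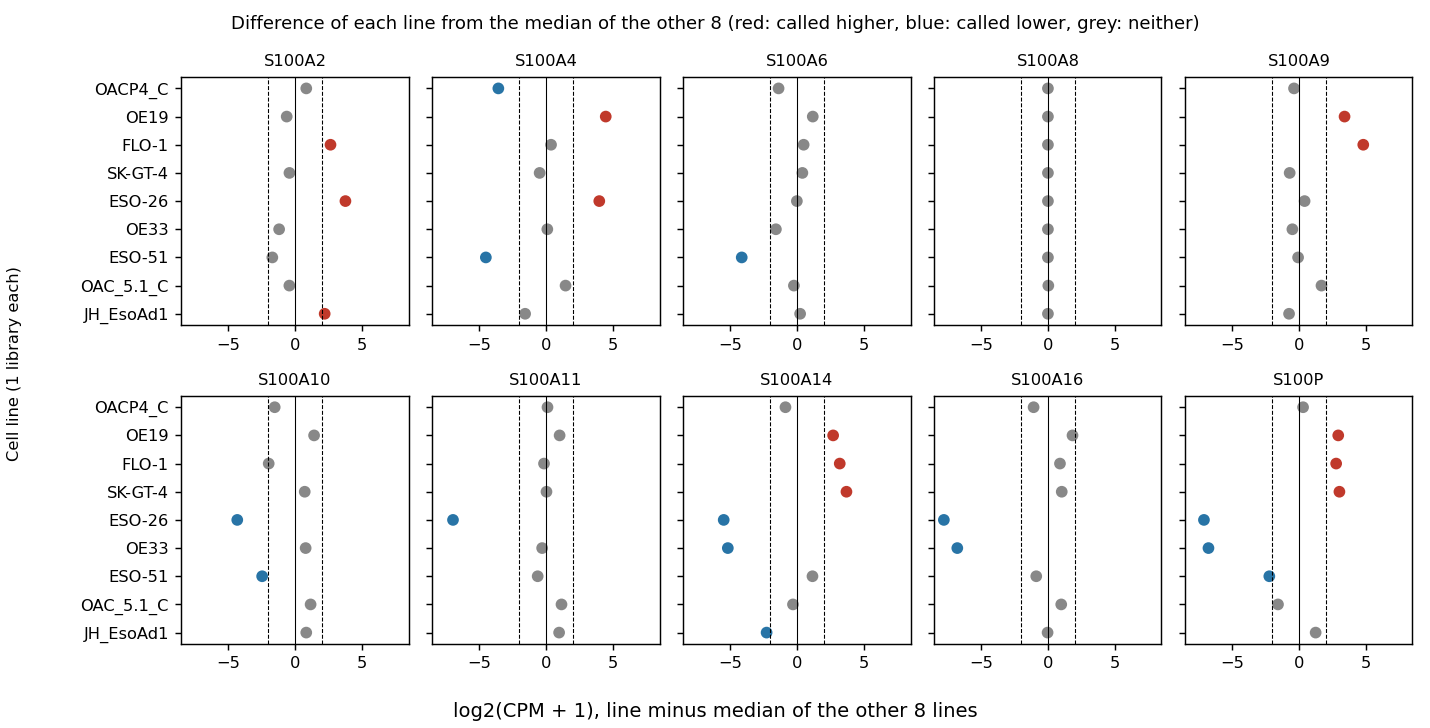
Difference of each line from the median of the other 8 lines in log2(CPM + 1), 1 panel per S100 gene with the lines down the page, dashed lines at -2 and 2, red for called higher, blue for called lower and grey for neither. The ESO-26 points lie left of -2 for S100A10, S100A11, S100A14, S100A16 and S100P and right of 2 for S100A2 and S100A4.

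S100A4 and S100A6 are the members tied to motility and growth. S100A4, known as metastasin and a partner of non-muscle myosin, had 5.68 CPM in OACP4_C, 1439.9 in OE19, 83.4 in FLO-1, 55.8 in SK-GT-4, 1029.9 in ESO-26, 73.2 in OE33, 2.49 in ESO-51, 178 in OAC_5.1_C and 25.8 in JH_EsoAd1. The highest level was 578 times the lowest, and no neighbours in the order overlapped in their intervals. OE19 (4.47 log2 units) and ESO-26 (3.99) were called higher, and ESO-51 (-4.50) and OACP4_C (-3.57) lower. ESO-26 thus combined almost no S100A14, S100A16 and S100P with the second highest S100A4 level, whereas OE33, the other line without them, lay 0.10 from the median of the rest. The fibroblast markers, a cell type in which S100A4 is also known, summed to 1.96 CPM in OE19, with 5 of 8 at 0, and to 329.7 CPM in ESO-26, with 2 of 8 at 0 and 2 of 8 at 5 CPM or more. In ESO-26 COL3A1 (311 CPM) and DCN (13.5 CPM) were called higher and COL1A1 was called lower, at 0.577 CPM against a median of 12.8 CPM in the other 8 lines. In the other 7 lines they summed to 3.14 to 88.8 CPM. Over the 9 lines the fibroblast list had 6 pairs called higher (11.1% of its tested pairs) and 2 lower (3.7%), against 5.11% and 3.47% over all genes tested. S100A3 overlaps S100A4 on the same strand, so reads in the shared stretch cannot be told apart. S100A3 had 9.05 CPM in OE19, where it was called higher by 2.47 log2 units, and 6.17 CPM in ESO-26.

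S100A6, also called calcyclin and expressed in proliferating cells, was the most abundant member by length-scaled level. It had 622 CPM in OACP4_C, 3293 in OE19, 2052 in FLO-1, 1920.1 in SK-GT-4, 1527 in ESO-26, 541 in OE33, 91.0 in ESO-51, 1378 in OAC_5.1_C and 1709 in JH_EsoAd1. Of the 9 lines ESO-51 was called, with a difference of -4.13 log2 units, and every line differed from its neighbours by more than the counting error. ESO-51 was also the lowest line for S100A4 and S100A2. Its calls were S100A4, S100A6, S100A10 and S100P, while S100A14, S100A16 and S100A11 differed by -0.87 to 1.16 log2 units there. Antisense transcripts overlap S100A6 and S100A11, and the sources used here do not say whether reads were counted by strand.

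S100A2, a p53 target known from basal and squamous epithelium, was low in most lines. It had 8.85 CPM in OACP4_C, 3.78 in OE19, 33.6 in FLO-1, 4.50 in SK-GT-4, 74.1 in ESO-26, 2.22 in OE33, 1.27 in ESO-51, 4.49 in OAC_5.1_C and 24.6 in JH_EsoAd1. ESO-26 (3.77 log2 units), FLO-1 (2.66) and JH_EsoAd1 (2.22) were called higher. The call in JH_EsoAd1 was lost with library size alone (1.99), with a pseudocount of 5 (1.64) and with FPKM (0.41 as deposited, 1.001 rescaled to equal sums), and that in FLO-1 with FPKM as deposited (1.85). SK-GT-4, OAC_5.1_C and OE19 followed each other with overlapping intervals. The squamous markers, of which 5 of 8 were tested, summed to 506 CPM in JH_EsoAd1. There 4 of the 8 were called higher (TP63, KRT6A, KRT13 and DSG3, background 4.95%). The markers summed to 32.4 CPM in ESO-26 with KRT14 higher and KRT13 lower, and to 28.1 CPM in FLO-1 with TP63 and DSG3 higher. TP63, the regulator of squamous fate, had 292 CPM in JH_EsoAd1, against a median of 0.114 CPM in the other 8 lines. In ESO-26, where S100A2 was highest, 6 of the 8 squamous markers were at 0. The list summed to 1.17 to 29.8 CPM in the other 6 lines. In all, 9 of its 45 tested pairs were called higher, 4 of them in JH_EsoAd1, and 2 lower (4.44%). The shares over all genes tested were 5.11% higher and 3.47% lower.

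S100A8 and S100A9 form calprotectin, the antimicrobial dimer of neutrophils and inflamed squamous epithelium. S100A8 had 1 count in all 9 libraries together, in OAC_5.1_C (0.0206 CPM, 95% interval 0.000521 to 0.115), and 0 counts in the other 8, where the floors of 0.0400 to 0.173 CPM apply. S100A9 had 0.293 CPM in OACP4_C, 13.8 in OE19, 38.1 in FLO-1, 0.0322 in SK-GT-4, 0.865 in ESO-26, 0.189 in OE33, 0.489 in ESO-51, 3.48 in OAC_5.1_C and 0 counts in JH_EsoAd1, where the floor was 0.149 CPM. FLO-1 (4.82 log2 units) and OE19 (3.42) were called higher, the call in OE19 being lost with a pseudocount of 5 (1.80). FLO-1 held 2861 counts of S100A9 and 0 of S100A8, and OE19 held 388 and 0, so the partner was not detectable at this depth in the lines with the most S100A9. Myeloid markers, of which 2 of 10 were tested, summed to 3.25 CPM in FLO-1, with 4 of 10 at 0, and to 3.46 CPM in OE19, with 5 of 10 at 0, and no marker reached 5 CPM in either. PTPRC, the pan-leukocyte antigen CD45, had 10 counts in FLO-1 and 2 in OE19. In the other 7 lines the list summed to 1.13 to 26.4 CPM, with CD14 at 25.4 CPM in ESO-26. Across the lines 3 pairs of this list were called higher (16.7% of its 18 tested pairs) and 0 lower, against 5.11% and 3.47% over all genes tested.

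The levels of different members were compared within a line by the authors' FPKM, which divides by gene length. S100A6 had the highest FPKM of the 10 in 8 of 9 lines and made up 48.2% (OE33) to 62.7% (ESO-26) of their summed FPKM. In ESO-51 S100A11 came first with 56.2 FPKM, ahead of S100A6 with 29.6 FPKM. The second place went to S100A11 in OACP4_C, OAC_5.1_C and JH_EsoAd1, to S100P in FLO-1 and SK-GT-4, to S100A4 in OE19 and ESO-26, and to S100A10 in OE33. Among 49207 genes ranked by FPKM, S100A6 stood at rank 15 in OE19 and FLO-1, and at rank 384 in ESO-51. OE19 had 5 members among its 100 highest genes, and ESO-51 had 0. All 10 members together took 0.655% of the counts in OE19 (Wilson 95% interval 0.652% to 0.658%), the highest share, and 0.0557% in ESO-51 (0.0550% to 0.0565%), the lowest. These shares use counts not divided by length.

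**Figure D4:**
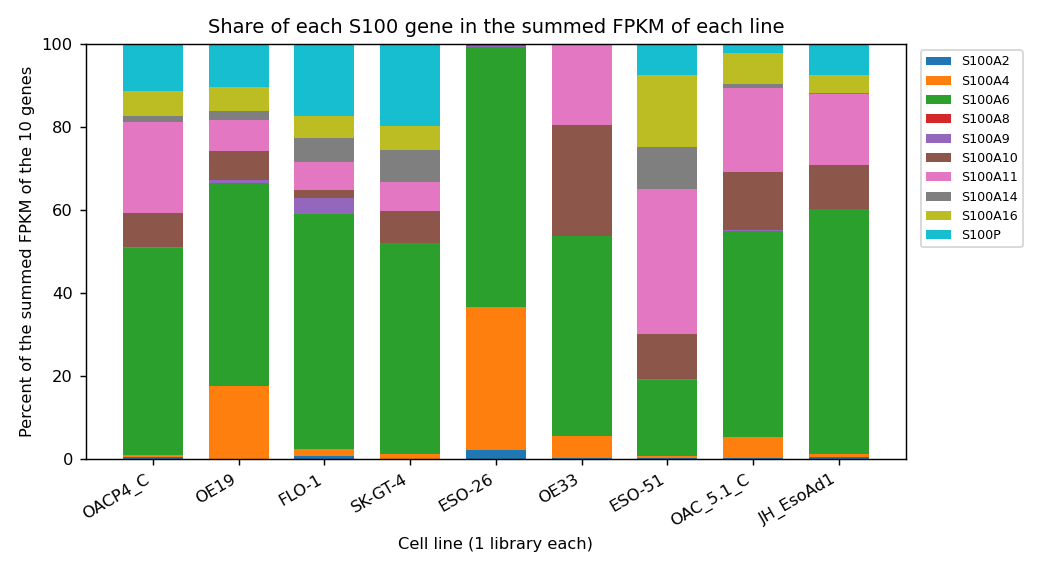
Share of each of the 10 S100 genes in their summed FPKM (bars, percent) in each of the 9 lines. S100A6 is the largest share everywhere except ESO-51, where S100A11 has 35.0%, and S100A4 is the second largest in OE19 and ESO-26.

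Over the 9 lines the 36 pairs of the 9 members detected in more than 1 line had a median Pearson r of 0.33 for log2(CPM + 1), from -0.58 to 0.94, and 9 of the 36 were negative. Only 4 pairs reached 0.80. They were S100A16 with S100P (r 0.94, Spearman 0.85), S100A14 with S100P (r 0.90, Spearman 0.82), S100A14 with S100A16 (r 0.89, Spearman 0.82) and S100A10 with S100A11. For the first 3, r was 0.63, 0.62 and 0.58 without ESO-26 and OE33, which are also the 2 lines farthest from the median, so these values rest in part on those lines. Without OE33 alone 7 pairs reached 0.80, and without ESO-26 and OE33 there were 3. S100A4 and S100A16 had r -0.21 over 9 lines and 0.96 over those 7. S100A4 and S100A6 had r 0.73 (Spearman 0.58) over 9 lines and 0.81 over those 7. These are descriptions over lines that share 1 normalization, with no test.

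**Figure D5:**
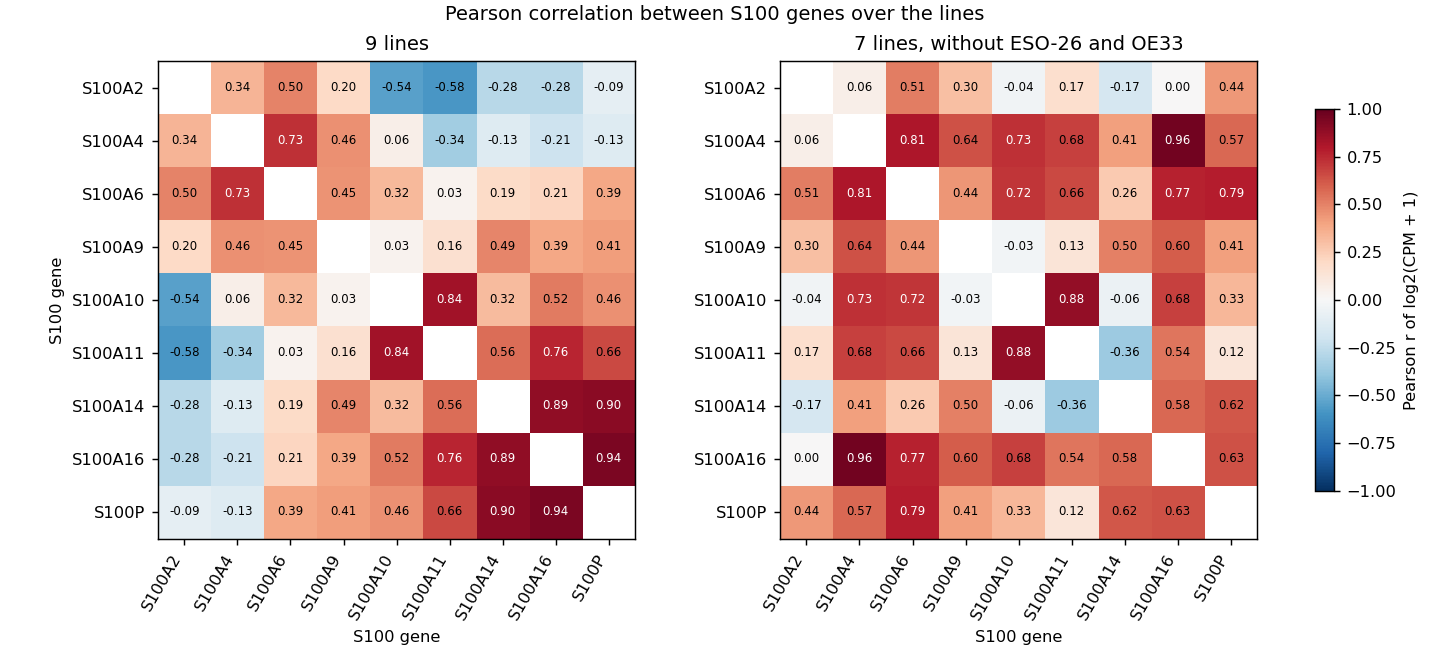
Pearson r of log2(CPM + 1) between 9 S100 genes over 9 lines (left) and over 7 lines without ESO-26 and OE33 (right), with red for positive and blue for negative values. S100A14, S100A16 and S100P are above 0.88 with each other on the left and at 0.58 to 0.63 on the right, and the S100A4 and S100A16 cell changes to 0.96.

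Among 7696 protein-coding genes outside the family that reached 5 CPM and varied by at least 2 log2 units, the genes most like each member were ranked by Pearson r over the 9 lines. They were picked on these same lines, so their r without ESO-26 and OE33 is not independent support. S100A4 was most like SEC13, a subunit of the COPII coat, with r 0.98, the same order in all lines (Spearman 1) and r 0.98 without ESO-26 and OE33. SEC13 ran from 24.6 CPM in ESO-51 to 154 CPM in OE19. RPSA, a ribosomal protein gene (r 0.94), and ZNF155 (r 0.93) came next, with r 0.93 and 0.91 without those lines. S100A11 was most like CYBA, a subunit of the NADPH oxidase (r 0.99), CARD10, a scaffold of NF-kB signalling (r 0.98), and SMARCB1, a core subunit of the SWI/SNF remodeller (r 0.98). SMARCB1 had 0 counts in ESO-26 and 20.3 to 62.2 CPM in the other lines. Without ESO-26 and OE33 these 3 values were 0.79, 0.69 and 0.72.

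S100A16 was most like TTC22 (r 0.98), ELMO3 (r 0.98) and TTC7A (r 0.98), which had r 0.74, 0.78 and 0.72 without ESO-26 and OE33. S100P was most like PTK6, an intracellular tyrosine kinase of epithelial cells (r 0.98), TTC7A (r 0.96) and BZW2 (r 0.96), with r 0.90, 0.83 and 0.78 without those lines. S100A14 was most like SDCBP2 (r 0.97), TMEM164 (r 0.94) and IGSF9 (r 0.94), with r 0.90, 0.83 and 0.90 without them. S100A6 was most like SLC27A5 (r 0.96), EIF2B5 (r 0.94) and RPL28 (r 0.93), which like S100A6 were lowest in ESO-51. Without ESO-26 and OE33, r was 0.99, 0.94 and 0.96. S100A10 was most like TLE1, a co-repressor (r 0.94), HTR1D (r 0.93) and UTRN, which encodes utrophin (r 0.92), with r 0.90, 0.86 and 0.84 without them. S100A9 was most like GREM1, a BMP antagonist that reached 117 CPM in FLO-1 (r 0.97, Spearman 0.66). SCARA5 (r 0.93, Spearman 0.39) and ZC3H12D (r 0.93, Spearman 0.58) came next. These genes were, like S100A9, highest in FLO-1. Without ESO-26 and OE33, r was 0.97, 0.93 and 0.93. S100A2 was most like EFEMP1, a matrix protein that reached 1698 CPM in ESO-26 (r 0.93, Spearman 0.70), GLI3 (r 0.93) and PDLIM3 (r 0.93), with r 0.88, 0.89 and 0.89 without them. Between 0 and 19 of the 7696 genes reached r 0.95 with a member, and the most were for S100A16.

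Of 11 other S100 genes, 3 reached 5 CPM in a library. S100A13, which takes part in the release of FGF1, had 1.51 CPM in OE33, against a median of 20.1 CPM in the other 8 lines (9.06 to 46.4), and was called lower there. It had 23.1 CPM in ESO-26, where S100A14 and S100A16 were close to absent. S100A5 was called higher in SK-GT-4, at 8.23 CPM against a median of 0.663 CPM, and in ESO-26, at 6.06 CPM, and S100A3 in OE19. S100A7, or psoriasin, had 11 counts, all in ESO-26, and S100A7A, S100A7L2 and S100A12 had 0 counts in every library. Over these genes 3 pairs were called higher and 1 lower, or 11.1% and 3.7% of the 27 tested pairs, against 5.11% and 3.47% over all genes tested.

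Of 13 S100 partners and receptors, 12 were tested, with 9 pairs called higher and 4 lower, or 8.33% and 3.7% of their pairs, against 5.11% and 3.47% over all genes tested. TRPV6, a calcium channel brought to the membrane by S100A10 and ANXA2, had 41.1 CPM in OAC_5.1_C, against a median of 0.336 CPM in the other 8 lines. TRPV6 was also called higher in FLO-1. AHNAK, the giant scaffold that S100A10 and ANXA2 hold at the membrane, had 319.8 CPM in ESO-26, where the other 8 lines had a median of 3537 CPM, and was called lower there (-3.44 log2 units), the line where S100A10, ANXA2 and AHNAK were all called lower. AHNAK was also called lower in ESO-51, where S100A10 was called lower and ANXA2 was not. TLR4, a receptor for calprotectin, was called higher in JH_EsoAd1, FLO-1 and SK-GT-4 and had 48.6 CPM in JH_EsoAd1, where S100A8 and S100A9 had 0 counts, against a median of 1.58 CPM. EZR, which encodes the S100P partner ezrin, had 2731 CPM in OACP4_C, against a median of 518 CPM.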

How the data were processed

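Total RNA from 9 cell lines was sequenced, 1 library column per line; the design text mentions 3 technical replicates per line, without saying how they enter the column. The submitters' processing notes name STAR 2.6.1d, FastQC 0.11.7, R 3.6.1 and GRCh37. Counter, annotation and strand setting: not given in the sources used here. The deposited table holds the authors' raw counts for 52158 named genes, per the file headers. A blank name with 0.00485% to 0.00965% of counts was left out. Each line also has deposited files with union-mode counts, intersection-not-empty counts, the authors' FPKM and a deposited gene length for 57905 identifiers. From the values, FPKM divides by all counts of that file, so levels were compared by FPKM within a line. Between lines FPKM, as deposited and rescaled to equal sums, served only to see how the calls depended on the unit. Names were paired with identifiers through a gene name table and GENCODE release 29. Of 50473 matched names, 49207 had equal counts in table and files and were ranked. All 10 members had equal counts in the table, the union mode and the intersection-not-empty mode.

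Counts were scaled with TMM factors of 0.831 to 1.11 (edgeR 4.0.16 in R 4.3.3) from 17163 genes at 1 CPM in at least 2 libraries, a gene set chosen after seeing the data, and used as log2(CPM + 1). A difference on this scale understates the change of low genes. Other steps used Python 3.11.15, numpy 2.4.6, pandas 2.3.3, scipy 1.17.1 and matplotlib 3.10.9. The scripts were tested on simulated data. With 1 library per line there is no test, SD or p-value. A called pair needed a difference of at least 2 from the median of the other 8 libraries and 5 CPM on the higher side.

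The members and gene lists were chosen with earlier results of these data known, and the 4 motifs after the sequences had been seen. Named were all members, other S100 genes at 5 CPM, up to 5 called genes with the largest difference per list, the 3 genes most like each member, pseudogene copies and ERBB2. Single markers and partners of a member named beyond this (among them CDH1, KRT8, GRHL2, PTPRC, ANXA2, S100A7 and the S100 genes at 0) were chosen after their values were seen. Promoter windows matched all 10 members. No protein sequence was used here.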

Additional observations from a re-analysis of the deposited data

How the results depend on the processing

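Of the 27 called pairs of S100 gene and line, 20 stayed called under every scaling, unit, pseudocount, filter and left-out library tried. The other 7 were S100P in FLO-1, S100A2 in FLO-1 and JH_EsoAd1, S100A9 in OE19, S100A10 and S100P in ESO-51 and S100A14 in JH_EsoAd1, each lost under at least 1 setting, and the cause was not tested. No difference changed direction among these pairs. With 2-fold in place of 4-fold as the limit, 23 pairs were higher and 23 lower. Set against the nearest of the other libraries in place of their median, 0 were higher and 2 lower. The shares over all genes tested given above hold for the 4-fold limit against the median only, so these counts have no share beside them. Library size alone moved all levels by -0.27 (JH_EsoAd1) to 0.14 (ESO-51) log2 units. With 1 library left out at a time, and its own calls with it, 9 to 15 pairs were higher and 9 to 15 lower. In these settings 6 to 9 members had a wide range and 3 to 7 pairs of members reached r 0.80. In the other gene lists, with the cell type marker lists left out of this count, 72 pairs were called. With FPKM rescaled to equal sums there were 34, with FPKM as deposited 44 and with a pseudocount of 5 there were 47. Without both ESO-26 and OE33, 11 pairs were higher, 8 lower and 5 members had a wide range. Counts of the intersection-not-empty mode, CPM not divided by length, TMM factors over all genes and all values without both ESO-26 and OE33 were chosen after seeing the data. No paired analysis was possible because each line has 1 column. Counting error limits genes of a few counts, as S100A14, S100A16 and S100P in ESO-26, and with no replicate column the spread between cultures of a line is unknown.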

Other observations

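Of 35 other EF-hand genes 31 were tested, with 14 pairs of gene and line called higher and 8 lower, or 5.02% and 2.87% of its tested pairs, close to the 5.11% and 3.47% over all genes tested. CALB1, the calcium buffer calbindin, had 809 CPM in JH_EsoAd1, against a median of 0.415 CPM in the other 8 lines (0.178 to 0.867), and CALB2, or calretinin, had 77.5 CPM there, against a median of 1.43 CPM. MYL9, a myosin light chain, had 38.7 CPM in OE33, against a median of 0.944 CPM. RCN1, a calcium-binding protein of the endoplasmic reticulum, had 8.49 CPM in SK-GT-4, against a median of 197 CPM, and GCA, or grancalcin, had 15 counts in OE19, 0.535 CPM, against a median of 20.5 CPM. In ESO-26 4 of the 31 tested genes of this list were called higher (RCN2, RCN3, NUCB2 and SPARC, background 4.81%) and 2 lower (background 7.98%).

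Of 21 genes of the cornified envelope, the protein shell of squamous cells, 20 matched the table and 5 were tested. Of the 45 tested pairs 4 were called higher and 4 lower, each 8.89%, against 5.11% and 3.47% over all genes tested. PPL, or periplakin, had 10 counts in ESO-26, 0.577 CPM, against a median of 124 CPM, and EVPL, or envoplakin, had 0 counts there, against a median of 74.2 CPM. PPL was also called lower in OE19, and EVPL in OE33. FLG, which encodes filaggrin, was called higher in OAC_5.1_C, JH_EsoAd1 and also ESO-26. It had 144 CPM in OAC_5.1_C, against a median of 1.27 CPM. TGM3, a transglutaminase, had 18.6 CPM in OE19, against a median of 0.0481 CPM.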
